A study of Homo sapiens with 54 samples.

Results

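The 41 DNA replication genes described here were chosen by symbol for what their products do when a cell copies its DNA, from the licensing of origins to the supply of deoxynucleotides. All 41 were among the 60642 human gene symbols of the table, and all 41 were among the 17593 genes tested, which reached 1 rescaled TPM (length-normalised transcript abundance, set to the same human total in every tumor) in at least 8 tumors. RNA-seq of polyadenylated RNA was done on 54 tumors, each from its own mouse. All grew from LNCaP clone FGC, a human prostate cancer cell line that depends on androgen, under the flank skin of young male NOD-SCID mice, which lack working B and T cells but keep their own stroma, vessels and myeloid cells. PRE-CX tumors (n = 9) came from mice with mock surgery and were taken at the size endpoint. The other 4 groups came from surgically castrated mice. POST-CX tumors (n = 8) were taken at the first low point of serum PSA, the prostate-specific antigen that LNCaP cells release, and CRPC tumors (n = 10) at its return or at the size endpoint. In the ENZS (n = 12) and ENZR (n = 15) groups enzalutamide, a drug that blocks androgen signaling, was given by mouth at 10 mg/kg from the time PSA rose after castration. ENZS tumors were taken at the second PSA low point, and ENZR tumors when PSA had returned or the size endpoint was reached on the drug. All tumors derive from 1 cell line, so the replicates are transplants and not patients, and no batch or date could be read from the labels.

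The human share of the deposited TPM ran from 12.1% to 97.5% of 1000000, and lay under 50% in POST-CX mouse 91 (27.9%) and ENZR mouse 87 (12.1%). The LNCaP cell markers KLK3, TMPRSS2, HOXB13, FOLH1, EPCAM, KRT8 and KRT18 each had a group median of at least 1 rescaled TPM in every group. The summed level of 15 human stroma and blood markers ran from 9.76 to 22.3 rescaled TPM in PRE-CX, 15.1 to 41.9 in POST-CX, 17.3 to 105 in CRPC, 23.6 to 300.3 in ENZS and 14.4 to 97.7 in ENZR. Of these 15, 3 had a median of at least 1 rescaled TPM in PRE-CX and 7 did in ENZS and in ENZR, HBB was at 0 in every POST-CX tumor and HBA1 in every ENZR tumor. The host's stroma and blood are mouse cells and mouse genes were removed, so these human values are not a direct measure of host tissue. The highest sums of POST-CX and ENZR were those of mouse 91 (41.9) and mouse 87 (97.7), the tumors with a human share under 50%. The source of these marker values and their part in the results below were not tested. In bulk tumors, fewer cells of a type and less RNA per cell cannot be told apart.

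DNA replication starts when the origin recognition complex, CDC6 and CDT1 load the ring of MCM2 to MCM7 onto origins, while geminin (GMNN) holds CDT1 back outside the licensing window. CDC45 and the GINS complex, with MCM10, then turn the loaded ring into the active helicase. Primase and DNA polymerase alpha lay primers, the RFC clamp loader places the PCNA ring, polymerases delta and epsilon extend, RPA covers single strands, and FEN1 and DNA ligase 1 join the lagging strand fragments. Ribonucleotide reductase, thymidylate synthase and thymidine kinase 1 supply deoxynucleotides. Many of these genes are transcribed mainly in late G1 and S phase and are low in resting cells, and androgen drives the division of LNCaP cells.

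In PRE-CX tumors the members covered a wide range of levels on the rescaled TPM scale, which is per transcript length and so can be compared between genes. PCNA had the highest mean, 239 ± 45.7 rescaled TPM (SD, n = 9), followed by GMNN at 199.6 ± 96.8 and POLD2 at 190 ± 22.8, and these neighbors differed by less than their SDs. POLA1 had the lowest, 7.05 ± 1.99, below GINS3 at 8.61 ± 1.82 and ORC1 at 8.78 ± 1.81, again within their SDs. The 6 MCM genes of the helicase ring ran from 27.7 (MCM5) to 86.1 (MCM7), and the 4 GINS genes from 8.61 (GINS3) to 23.9 (GINS1). Averaged over the 41 members, log2(rescaled TPM + 1) per tumor ran from 4.82 to 5.48 in PRE-CX with a median of 5.17, from 3.86 to 5.17 in POST-CX (median 4.91), from 4.31 to 5.34 in CRPC (median 4.71), from 3.31 to 4.32 in ENZS (median 3.76) and from 3.35 to 5.18 in ENZR (median 4.02). Every ENZS tumor lay below every PRE-CX tumor, and 11 of 12 lay below every CRPC tumor, with ENZS mouse 45 at the top of its group. The 3 groups without enzalutamide overlapped.

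**Figure D1:**
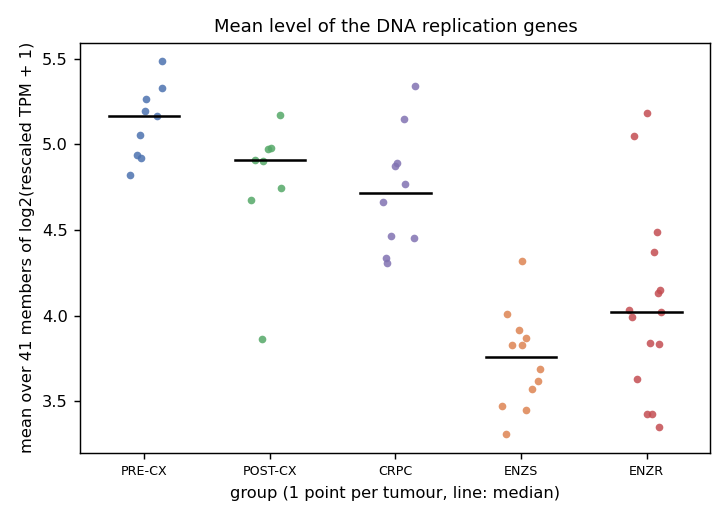
Mean over the 41 DNA replication genes of log2(rescaled TPM + 1) in each of 54 tumors (points) by group, with the group median as a line. ENZS tumors lie between 3.31 and 4.32, below the PRE-CX range of 4.82 to 5.48, and 2 ENZR tumors lie inside that range.

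The first comparison was the castration step, POST-CX against PRE-CX. PRE-CX tumors were taken at the size endpoint and POST-CX tumors at the first PSA low point. Castration therefore cannot be told apart from the time and tumor size at harvest. 6 of 41 members were lower and 0 were higher (limma, adjusted p under 0.05), where 5.62% of all genes tested were lower and 20.6% higher. The 6 were both primase genes, PRIM1 and PRIM2, the clamp loader genes RFC4 and RFC5, the flap endonuclease gene FEN1 and the smallest RPA gene, RPA3. None was lower by 2-fold, where 225 of 17593 genes were. The median log2 difference was -0.33 over the members and 0.16 over all genes tested. At an unadjusted p under 0.05 there were 13 of 41 members and 6858 of 17593 genes.

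PRIM2, which encodes the large primase subunit (RefSeq GRCh38.p14, chromosome 6, 57221540 to 57646850), was at 17.8, 19.8 and 25.8 rescaled TPM (lowest, median, highest) in PRE-CX and at 8.46, 13.7 and 17.8 in POST-CX. Its groups did not overlap. The log2 difference was -0.59 (limma, SE 0.15, adjusted p 0.00243), with 8 of 8 POST-CX tumors below the PRE-CX range. RPA3 ran from 100.2 to 206 with a median of 127 in PRE-CX and from 69.0 to 114 with a median of 94.8 in POST-CX, a log2 difference of -0.50 (limma, SE 0.14, adjusted p 0.00675) with 4 of 8 tumors below the PRE-CX range. RFC4 and PRIM1 lay below it in 6 of 8 tumors each (log2 differences -0.52 and -0.48, limma adjusted p 0.0204 and 0.0281), and FEN1 and RFC5 in 3 of 8 each (log2 differences -0.63 and -0.54, limma adjusted p 0.0352 and 0.0254). Larger differences did not pass the test in genes with a wider spread. RRM2 had -0.82 (limma, SE 0.57, adjusted p 0.285), CDC45 -0.79 (SE 0.41, adjusted p 0.146), ORC6 -0.74 (SE 0.33, adjusted p 0.0853) and CDC6 -0.73 (SE 0.39, adjusted p 0.156). The smallest differences were those of POLD3 (0.00, -0.19 after centring), POLA1 (-0.01, 0.06 without the tumors of low human share) and POLE (0.02, -0.17 after centring).

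The castration count rested in part on 1 tumor. POST-CX mouse 91, with a human TPM share of 27.9%, had the lowest mean member level of its group, 3.86 against 4.67 to 5.17 in the others, and 34 of its 41 members lay below the PRE-CX range, against 1 to 20 in the others. Without it, 2 members were lower, PRIM2 and RPA3. The count was 0 with TPM as deposited, 3 with no filter on low values, 16 with each tumor centred on its median gene and 13 with only the 2 compared groups in the fit.

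Relapse after castration, CRPC against POST-CX, gave 0 members lower and 0 higher by limma, where 0.0568% of all genes were lower and 0.00568% higher. At an unadjusted p under 0.05 there were 1 of 41 members and 2259 of 17593 genes. The member was LIG1, the ligase that seals lagging strand fragments, with a log2 difference of -0.46 (limma, SE 0.20, adjusted p 0.316). The highest value, that of RPA2, was 0.15 (limma, SE 0.09, adjusted p 0.469). The median log2 difference was -0.04 over the members and -0.07 over all genes.

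Against PRE-CX, CRPC tumors had 10 members lower and 0 higher, where 5.87% of all genes were lower and 14.2% higher. These were PRIM1, PRIM2, RFC1, RFC4, FEN1, LIG1, RPA3, ORC1 (the largest subunit of the origin recognition complex), MCM7 and GINS3. PRIM2 ran from 10.1 to 17.7 in CRPC with a median of 13.3, below the PRE-CX range in 10 of 10 tumors (log2 difference -0.60, limma, SE 0.14, adjusted p 0.00136). FEN1 ran from 18.2 to 63.3 with a median of 30.5, against 32.3 to 73.1 with a median of 53.0 in PRE-CX, and the groups overlapped (log2 difference -0.71, limma, SE 0.22, adjusted p 0.0155). The other 8 ranged from -0.63 (ORC1) to -0.42 (RPA3), with adjusted p from 0.0176 to 0.05. RRM2 again had a larger difference that did not pass, -0.86 (limma, SE 0.54, adjusted p 0.270). This count was 0 with TPM as deposited, 5 with no filter and 16 with only the compared groups. It was 5 without PRE-CX mouse 53, PRE-CX mouse 112, CRPC mouse 36 or CRPC mouse 47, and 6 without PRE-CX mouse 67, CRPC mouse 35 or CRPC mouse 89.

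In the enzalutamide step, ENZS against CRPC, most of the members differed. CRPC tumors were taken at the return of PSA or at the size endpoint, and ENZS tumors at the second PSA low point. The drug therefore cannot be told apart from the time and tumor size at harvest. 35 of 41 were lower, 18 of them by 2-fold or more, and 0 were higher, where 6.41% of all genes were lower and 31.4% higher. By 2-fold or more, 218 of 17593 genes were lower. The median log2 difference was -0.76 over the members and 0.21 over all genes. The 6 that did not pass were RFC1, POLA1, POLD3, POLE, RPA1 and RPA2. With TPM as deposited, 26 members were lower, and with centring on the median gene, 38, with POLA1, POLD3 and RPA1 among them.

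The supply of deoxynucleotides held the largest falls. RRM2, the regulated small subunit of ribonucleotide reductase (chromosome 2, 10122568 to 10211010), was at 28.0, 60.0 and 119.8 rescaled TPM (lowest, median, highest) in CRPC and at 0.641, 9.18 and 45.6 in ENZS, and 11 of 12 ENZS tumors lay below the CRPC range. Its log2 difference was -2.84 (limma, SE 0.50, adjusted p 4.42e-05). TYMS, thymidylate synthase (chromosome 18, 657653 to 673578), was at 54.7, 107 and 181 in CRPC and at 4.49, 16.5 and 69.6 in ENZS. ENZS mouse 45 was the only tumor of its group to reach the CRPC range in RRM2. TYMS had a log2 difference of -2.60 (limma, SE 0.40, adjusted p 7.83e-06), again with 11 of 12 tumors below. TK1, the thymidine salvage kinase (chromosome 17, 78174079 to 78187204), was at 31.4, 52.3 and 115 in CRPC and at 5.03, 11 and 27.9 in ENZS, with no overlap (log2 difference -2.06, limma, SE 0.30, adjusted p 5.23e-06). RRM1, the large reductase subunit, differed by -0.38 (limma, SE 0.14, adjusted p 0.0267), with 0 of 12 tumors below the CRPC range.

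In helicase activation, all 6 members were lower by 2-fold or more. CDC45 (chromosome 22, 19479466 to 19520612) was at 5.31, 11.3 and 34.2 in CRPC and at 0.163, 1.97 and 5.63 in ENZS, and the groups touched only through the highest ENZS tumor. Its log2 difference was -2.23 (limma, SE 0.36, adjusted p 1.23e-05). MCM10 fell by 1.97 on the log2 scale, GINS1 by 1.74 and GINS2 by 1.59, with 12 of 12 ENZS tumors below the CRPC range in each. GINS4 fell by 1.3 and GINS3 by 1.0. Differences between these genes were not tested.

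Origin licensing genes were lower in 5 of 5. CDC6 fell by 1.91 on the log2 scale, ORC6 by 1.78, CDT1 by 1.70 and ORC1 by 1.16 (limma adjusted p 4.51e-05, 1.46e-05, 5.55e-06 and 0.000102). CDT1 was at 4.44, 8.00 and 14.7 in CRPC and at 0.870, 1.41 and 5.40 in ENZS, with 11 of 12 tumors below the CRPC range. GMNN, which encodes the protein that inhibits CDT1, was at 89.7, 137 and 210.0 in CRPC and at 41.9, 102 and 156 in ENZS, with overlap, a log2 difference of -0.64 (limma, SE 0.23, adjusted p 0.0251).

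The helicase ring was lower in 6 of 6 genes. MCM5 differed by -1.06, MCM4 by -1.0, MCM2 by -0.94, MCM7 by -0.76, MCM3 by -0.63 and MCM6 by -0.54 on the log2 scale (limma adjusted p 0.000114 to 0.00681). MCM2 was at 11.6, 23.5 and 48.6 in CRPC and at 8.37, 12.0 and 15.3 in ENZS. The lowest value in CRPC was that of mouse 47, and 2 of 12 ENZS tumors lay below it. MCM4 lay below in 11 of 12.

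Among the clamp and its loader, PCNA was at 127, 187 and 309 rescaled TPM in CRPC and at 58.4, 81.9 and 126 in ENZS, without overlap (log2 difference -1.07, limma, SE 0.18, adjusted p 2.71e-05). RFC3 differed by -0.88, RFC5 by -0.76, RFC4 by -0.59 and RFC2 by -0.39 (limma adjusted p 0.00131, 0.000374, 0.00228 and 0.0338). RFC1, the large loader subunit, went the other way without passing the test, 0.34 (limma, SE 0.16, adjusted p 0.0887), with 4 of 12 tumors above the CRPC range.

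Of the polymerase and primase genes, 6 of 9 were lower. POLE2, the second subunit of polymerase epsilon, was at 4.52, 8.06 and 12.0 in CRPC and at 0.710, 2.69 and 8.41 in ENZS, with 10 of 12 tumors below the CRPC range (log2 difference -1.22, limma, SE 0.24, adjusted p 0.000196). POLE, its catalytic subunit, was at 5.42, 13.0 and 16.3 in CRPC and at 8.64, 14.0 and 16.8 in ENZS, a difference of 0.15 (limma, SE 0.14, adjusted p 0.406) that became -0.05 after centring. POLA2, PRIM2 and PRIM1 of the primase complex fell by 0.74, 0.74 and 0.73 on the log2 scale, and POLA1, which carries the polymerase activity of that complex, differed by -0.16 (limma, SE 0.12, adjusted p 0.310). For polymerase delta, POLD1 fell by 0.70 and POLD2 by 0.69, and POLD3 differed by -0.22 (limma, SE 0.09, adjusted p 0.0576).

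Of the single-strand binding genes, RPA3 fell by 0.52 on the log2 scale (limma, SE 0.12, adjusted p 0.00125). RPA1, the large subunit, was at 67.6, 101 and 112 in CRPC and at 72.8, 93.9 and 118 in ENZS, with overlapping groups and a difference of -0.03 (limma, SE 0.11, adjusted p 0.833). RPA2 differed by 0.17 (limma, SE 0.08, adjusted p 0.0738), which became -0.03 after centring. FEN1 was at 18.2, 30.5 and 63.3 in CRPC and at 9.20, 12.2 and 21.7 in ENZS, a log2 difference of -1.25 (limma, SE 0.20, adjusted p 1.25e-05), and LIG1 had -0.50 (limma, SE 0.18, adjusted p 0.0235).

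**Figure D2:**
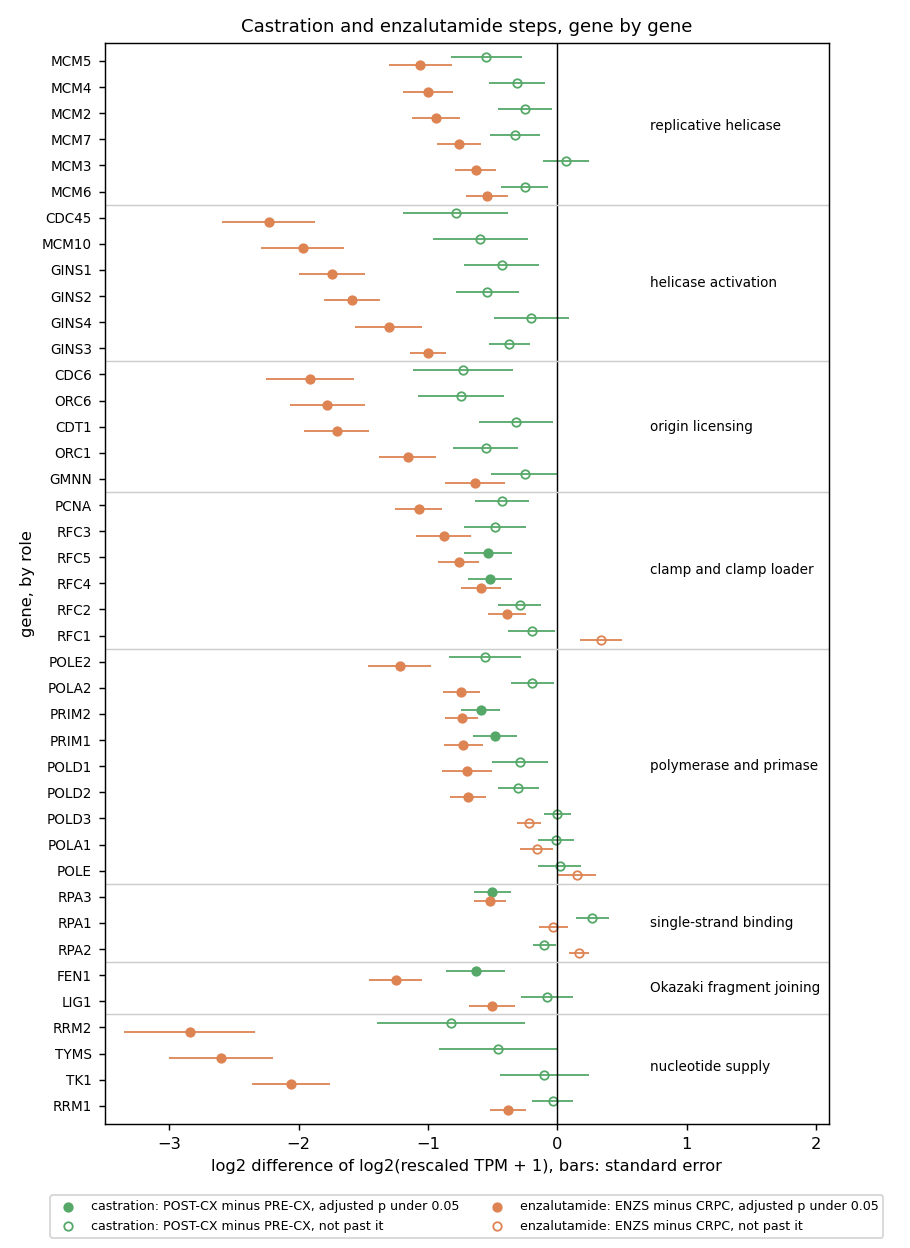
Log2 difference of each of 41 members (x axis, on log2(rescaled TPM + 1), bars are the standard error), grouped by role, for castration (POST-CX minus PRE-CX) and enzalutamide (ENZS minus CRPC). Filled points passed an adjusted p of 0.05, 6 members in the first and 35 in the second, and the largest falls are RRM2 at -2.84 and TYMS at -2.60.

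**Figure D3:**
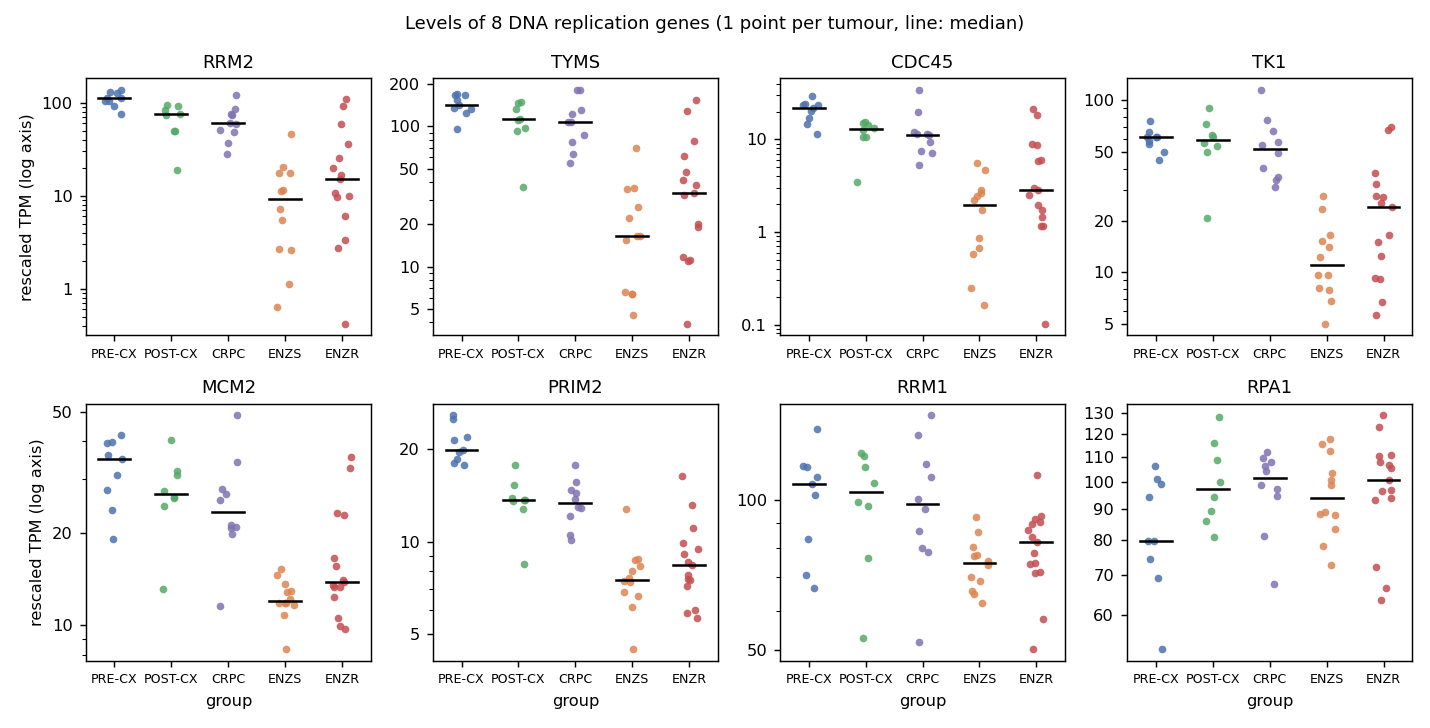
Rescaled TPM (log axis) of 8 members in each tumor by group, with the group median as a line. The median of RRM2 is 60.0 in CRPC and 9.18 in ENZS, while the median of RPA1 is 101 in CRPC and 93.9 in ENZS.

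The proportions of partner genes are given here as ratios of rescaled TPM within each tumor, without a test. RRM2 to RRM1 was 0.828, 1.09 and 1.68 (lowest, median, highest) in PRE-CX, 0.354, 0.667 and 0.943 in POST-CX, 0.349, 0.641 and 0.983 in CRPC, 0.00830, 0.129 and 0.529 in ENZS and 0.00540, 0.163 and 1.54 in ENZR. The CDT1 to GMNN ratio had a median of 0.0546 in CRPC, 0.0171 in ENZS and 0.0405 in ENZR, and its ranges overlapped. POLE2 to POLE had medians of 0.786 in PRE-CX, 0.614 in CRPC, 0.195 in ENZS and 0.186 in ENZR. POLA2 to POLA1 had medians of 3.10, 2.61, 1.68 and 1.83 in the same groups. A ratio within a tumor does not depend on the scaling of that tumor.

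**Figure D4:**
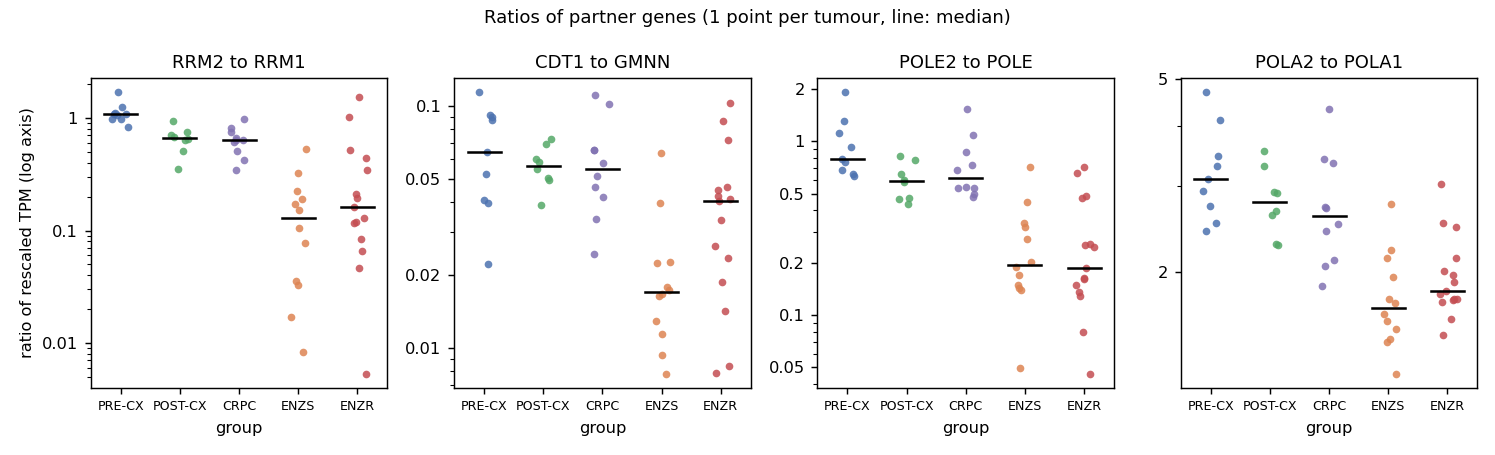
Ratio of rescaled TPM of 4 pairs of partner genes (log axis) in each tumor by group, with the group median as a line. RRM2 to RRM1 has a median of 0.641 in CRPC and 0.129 in ENZS.

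The promoters of members at both ends of the enzalutamide step are shown because E2F factors and the CCAAT-binding factor NF-Y are known regulators of many replication genes. RefSeq (GRCh38.p14) windows were listed for 35 of the 41 members, not for MCM4, MCM5, GINS4, POLD3, RPA2 and RPA3. From the 27 with a single listed start, the 3 with the largest falls (TYMS, MCM10 and CDC6) and the 3 with the smallest differences (RPA1, POLE and POLA1) are printed, the 250 bases before the start, 5′ to 3′ on the strand of the gene. Capitals mark matches on either strand to the E2F letters TTTCCCGC, TTTCGCGC, TTTGCCGC or TTTGGCGC, or to CCAAT.
TYMS, chr18:657403-657652, plus strand: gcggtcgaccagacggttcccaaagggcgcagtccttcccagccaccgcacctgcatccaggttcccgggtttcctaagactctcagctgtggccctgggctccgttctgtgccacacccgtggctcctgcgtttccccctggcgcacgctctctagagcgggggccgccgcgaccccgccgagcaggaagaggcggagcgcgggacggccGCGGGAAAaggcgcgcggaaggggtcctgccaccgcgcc
MCM10, chr10:13161308-13161557, plus strand: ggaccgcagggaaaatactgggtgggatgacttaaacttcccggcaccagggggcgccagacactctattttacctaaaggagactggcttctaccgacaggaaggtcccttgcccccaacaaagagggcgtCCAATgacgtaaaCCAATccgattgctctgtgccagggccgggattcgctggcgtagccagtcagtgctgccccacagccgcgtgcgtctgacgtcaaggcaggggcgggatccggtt
CDC6, chr17:40287629-40287878, plus strand: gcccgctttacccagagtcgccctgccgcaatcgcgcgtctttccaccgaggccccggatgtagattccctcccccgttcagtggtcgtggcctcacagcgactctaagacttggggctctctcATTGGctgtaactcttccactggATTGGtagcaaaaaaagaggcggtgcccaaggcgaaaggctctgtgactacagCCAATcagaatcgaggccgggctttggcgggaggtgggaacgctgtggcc
RPA1, chr17:1829755-1830004, plus strand: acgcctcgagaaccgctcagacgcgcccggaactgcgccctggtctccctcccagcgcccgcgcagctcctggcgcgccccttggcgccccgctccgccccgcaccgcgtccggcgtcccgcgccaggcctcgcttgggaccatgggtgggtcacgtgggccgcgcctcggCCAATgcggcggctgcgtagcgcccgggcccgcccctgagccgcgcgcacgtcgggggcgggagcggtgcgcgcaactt
POLE, chr12:132687343-132687592, minus strand: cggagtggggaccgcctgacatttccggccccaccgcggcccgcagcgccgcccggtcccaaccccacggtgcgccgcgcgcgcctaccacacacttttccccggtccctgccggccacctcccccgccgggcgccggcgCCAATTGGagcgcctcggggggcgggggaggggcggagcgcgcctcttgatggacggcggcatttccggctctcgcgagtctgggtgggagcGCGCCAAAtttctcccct
POLA1, chrX:24693668-24693917, plus strand: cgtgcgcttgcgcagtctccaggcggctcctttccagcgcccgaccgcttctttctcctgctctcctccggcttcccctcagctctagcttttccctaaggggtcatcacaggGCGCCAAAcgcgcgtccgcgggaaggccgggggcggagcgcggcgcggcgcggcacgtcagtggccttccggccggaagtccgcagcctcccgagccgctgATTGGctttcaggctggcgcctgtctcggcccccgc
TYMS, POLE and POLA1 held 1 E2F match each, CDC6 held 3 CCAAT matches, MCM10 2, POLE 2 that overlap each other, and RPA1 and POLA1 1 each. Counting a gene once if any of its windows matched in these 250 bases, 13 of 35 members (37.1%) held an E2F match against 3.40% of 27305 genes, and 22 of 35 (62.9%) held CCAAT against 37.0%. A match to TTTGAA, the core of the cell cycle element known as CHR, was found in 1 of 35 members (2.86%) and in 16.1% of all genes. The E2F counts depend on the window. Over the full listed windows of 300 bases, 18 of 35 members (51.4%) held an E2F match against 3.99% of all genes, and CDC6 held 1. Near matches to the E2F letters were not counted. All of these are descriptions of letters in a window, and both the falling and the least changed genes printed here hold matches.

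After relapse on the drug, ENZR against ENZS, 0 members were lower and 0 higher by limma, where 0% of all genes passed in either direction. At an unadjusted p under 0.05 there were 16 of 41 members and 1752 of 17593 genes. The log2 difference was above 0 in 38 of 41 members, and below 0 in 10651 of 17593 genes. Many members vary together over the tumors, so these are not 38 separate results. The median was 0.28 over the members and -0.04 over all genes. RRM2 was at 0.419, 14.9 and 110.5 rescaled TPM in ENZR, with 3 of 15 tumors above the ENZS range and 1 below it, a difference of 0.89 (limma, SE 0.46, adjusted p 0.514). TYMS was at 3.91, 33.5 and 154 (0.88, limma, SE 0.36, adjusted p 0.416), CDC45 at 0.102, 2.86 and 21.3 (0.83, limma, SE 0.33, adjusted p 0.405) and TK1 at 5.67, 24 and 70.0 (0.73, limma, SE 0.27, adjusted p 0.393). LIG1 had the lowest adjusted p, 0.306, with a difference of 0.54 (SE 0.16), and GMNN the lowest value, -0.14 (limma, SE 0.21, adjusted p 0.864).

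The ENZR group was wide in the members. The SD on the log2 scale was larger in ENZR than in ENZS for 39 of 41 members. Its median over members was 0.53 in ENZR, 0.43 in CRPC, 0.41 in POST-CX, 0.32 in ENZS and 0.32 in PRE-CX. The SDs and the counts against the PRE-CX range were taken for the members only. Without the shares over all genes, neither can be called particular to the members. ENZR mice 75 and 104 had mean member levels of 5.18 and 5.05, inside the PRE-CX range of 4.82 to 5.48, followed by mouse 94 at 4.49 and mouse 100 at 4.37, and the other 11 were between 3.35 and 4.15. Mouse 75 was the highest ENZR tumor in 26 of 41 members and mouse 104 in 9. In mouse 75, 2 of 41 members lay below the PRE-CX range and 5 above it, and in mouse 104, 6 lay below and 4 above, whereas 27 to 37 members lay below it in the other 13 ENZR tumors and 31 to 36 in the ENZS tumors. Mouse 75 had the lowest summed stroma and blood markers of the group, 14.4 rescaled TPM, and mouse 104 had 61.8, near the group median of 69.1. The summed level of 20 mitosis genes in the group ran from 48.5 to 642 with a median of 197. ENZR mouse 87, with 12.1% human TPM, had a mean member level of 3.42.

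**Figure D5:**
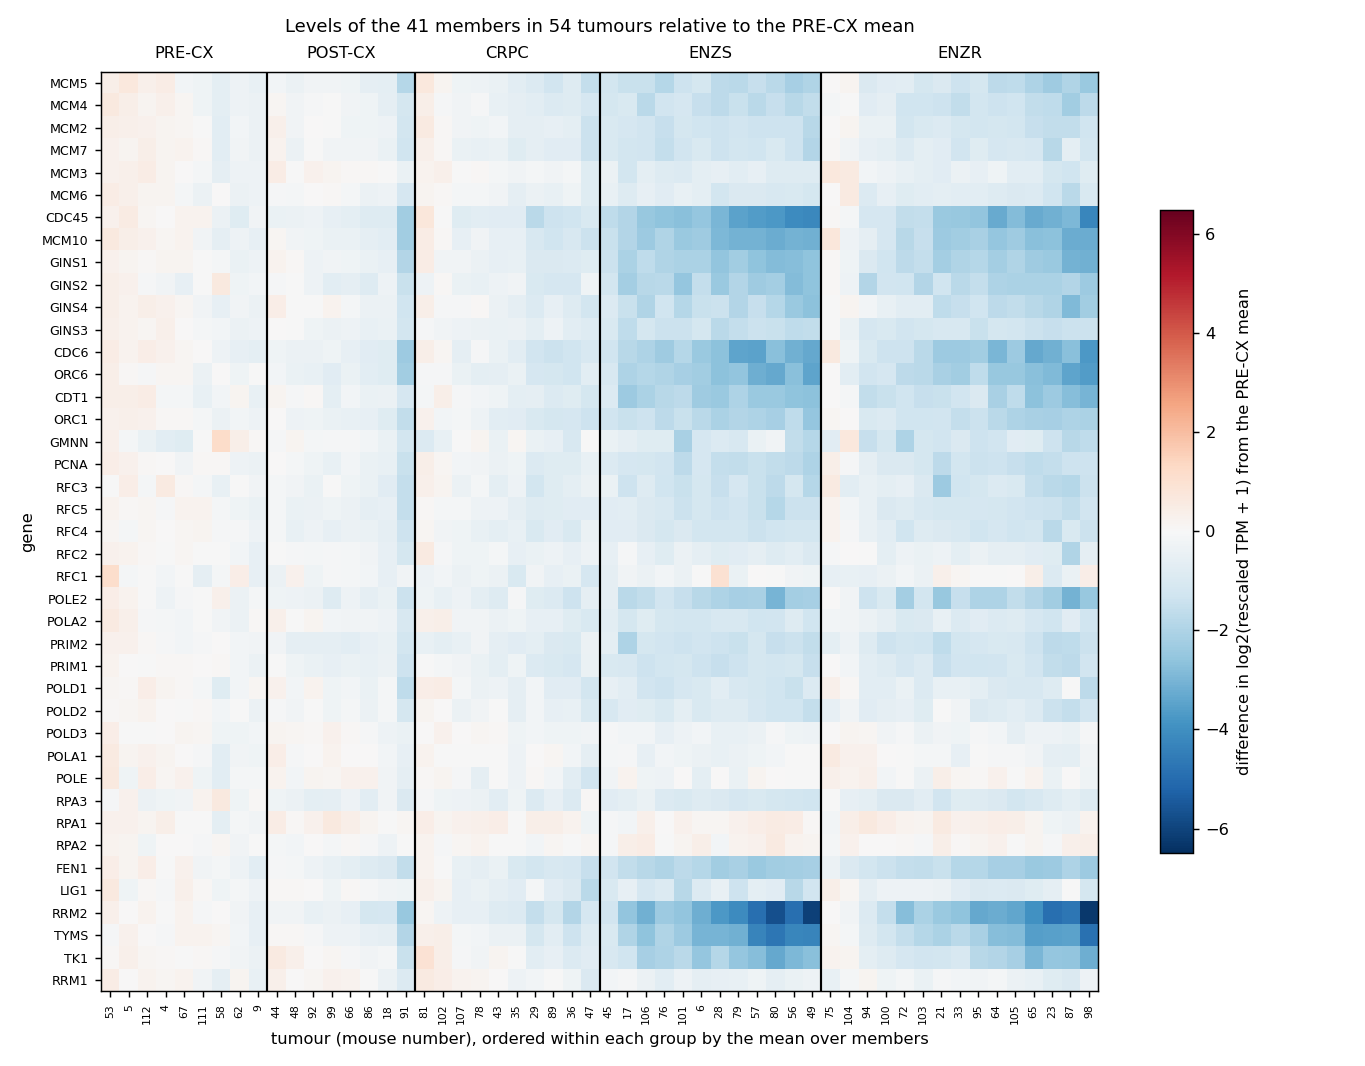
Log2(rescaled TPM + 1) of each of 41 members (rows) in each of 54 tumors (columns, mouse numbers, ordered within groups by the mean over members) minus the PRE-CX mean of that gene. Blue is lower and red higher. Most members are blue in the ENZS tumors, RPA1, RPA2, POLA1 and POLD3 are pale in most tumors, and ENZR mice 75 and 104 are mostly pale, with 2 and 6 members below the PRE-CX range.

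Set against tumors that had seen neither castration nor drug, ENZS had 36 members lower, 29 of them by 2-fold or more, and 1 higher, where 13.6% of all genes were lower and 47.5% higher. By 2-fold or more, 544 of 17593 genes were lower in ENZS. In ENZR, 35 were lower, 22 by 2-fold or more, and 0 were higher, where 13.8% of all genes were lower and 44.6% higher, and 498 of 17593 genes were lower by 2-fold or more. Both comparisons use the same 9 PRE-CX tumors, so they are not independent. RRM2 was at 75.0, 111 and 137 rescaled TPM in PRE-CX, above every ENZS tumor and above 13 of 15 ENZR tumors, with log2 differences of -3.70 (limma, SE 0.52, adjusted p 3.88e-08) in ENZS and -2.81 (limma, SE 0.50, adjusted p 4.88e-06) in ENZR. TYMS had -3.04 and -2.16, CDC45 -2.99 and -2.16, and CDC6 -2.54 and -2.02. MCM10 had -2.57 in ENZS and ORC6 -2.0 in ENZR. In ENZS the only member called higher was RPA2, 0.22 (limma, SE 0.08, adjusted p 0.0149), which was -0.07 after centring and missed the threshold with TPM as deposited. In ENZR it had 0.13 (limma, SE 0.08, adjusted p 0.15), which was -0.13 after centring and -0.11 with TPM as deposited. RPA1 had 0.20 and 0.23, POLE -0.13 and 0.05, POLA1 -0.25 and -0.10 and RFC1 -0.14 and -0.17 in ENZS and ENZR. None of these passed in the fit of all tumors without centring. After centring, RFC1 (-0.44), POLE (-0.42) and POLA1 (-0.54) passed as lower in ENZS (limma, adjusted p 0.00694, 0.00633 and 0.000187). So did RFC1 (-0.43) and POLA1 (-0.36) in ENZR (limma, adjusted p 0.00624 and 0.0088). Without the tumors of low human share, RPA1 passed as higher in ENZR (0.27, limma, adjusted p 0.0272). POLD3 had -0.29 in ENZS (limma, SE 0.10, adjusted p 0.00864) and -0.19 in ENZR (limma, SE 0.09, adjusted p 0.0725). Its ENZS value missed the threshold with TPM as deposited, and its ENZR value passed after centring (-0.45, limma, adjusted p 7.7e-05).

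The castration and enzalutamide steps use different tumors, and their difference was tested gene by gene. 5 members fell more in the enzalutamide step and 0 fell less, where 2.05% of all genes were lower in this contrast and 3.44% higher. TYMS differed by -2.15 (limma, SE 0.61, adjusted p 0.0263), TK1 by -1.96 (SE 0.46, adjusted p 0.00584), CDT1 by -1.38 (SE 0.38, adjusted p 0.0212), GINS1 by -1.31 (SE 0.39, adjusted p 0.0337) and GINS2 by -1.05 (SE 0.32, adjusted p 0.0447). For TK1 the castration step alone was -0.10 (limma, SE 0.34, adjusted p 0.854), and it was 0.10 without the tumors of low human share. RRM2 had -2.02 (limma, SE 0.76, adjusted p 0.106) and CDC45 -1.44 (SE 0.54, adjusted p 0.104), which did not pass. PRIM2 differed by -0.15 (SE 0.20), RPA3 by -0.02 (SE 0.19) and RFC4 by -0.07 (SE 0.23) between the steps, and with TPM as deposited all 3 were above 0. The count of 5 was 0 with TPM as deposited, 2 with no filter, 13 without the 2 tumors of low human share and 13 with only the compared groups. It was 10 without POST-CX mouse 91, 8 without ENZR mouse 75 and 3 without PRE-CX mouse 62, POST-CX mouse 44 or POST-CX mouse 48. All 6 members that were lower after castration were among the 35 of 41 members that were lower in the enzalutamide step, where 6.41% of all genes were lower. With most members lower in that step, this overlap says little about a link between the steps.

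The difference of the relapse steps (ENZR minus ENZS against CRPC minus POST-CX) gave 0 members lower and 0 higher by limma, where 0.102% of all genes were lower and 0.0966% higher. At an unadjusted p under 0.05 there were 6 of 41 members and 2382 of 17593 genes. The median of this difference over the members was 0.35. The count was 1 without CRPC mouse 81, CRPC mouse 102 or ENZR mouse 98.

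Other genes of the pathway were read from lists written with the members. Of 29 other replication genes, 16 were lower and 3 higher in the enzalutamide step, with a median of -0.41, beside 6.41% of all genes lower and 31.4% higher. The largest falls were in PCLAF, a small PCNA-binding protein gene (-2.47, limma, SE 0.31, adjusted p 2.4e-06), CLSPN, which encodes the checkpoint mediator claspin (-1.48, limma, SE 0.25, adjusted p 2.4e-05), and TICRR, needed to fire origins (-1.36, limma, SE 0.24, adjusted p 4.3e-05). After castration 3 were lower and 1 higher, led by ORC5 of the origin recognition complex at -0.96 (limma, SE 0.14, adjusted p 2.6e-06). Of 14 other nucleotide supply genes, 6 were lower and 0 higher in the enzalutamide step, among them CTPS1, which makes CTP, at -0.73 (limma, SE 0.20, adjusted p 0.00398). After castration, 2 were lower (SHMT2 -0.87, CTPS1 -0.60) and 2 higher (SAMHD1, which degrades deoxynucleotides, 0.71, and RRM2B, the p53-induced reductase subunit, 0.35), beside 5.62% of all genes lower and 20.6% higher. Of 8 histone supply and chromatin assembly genes, 3 were lower in the enzalutamide step, ASF1B (-2.40), UHRF1 (-1.83) and HELLS (-1.12), and SLBP was lower after castration (-0.42).

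A list of 20 mitosis genes was read beside the members. All 20 were lower by 2-fold or more in ENZS than in CRPC, where 218 of 17593 genes were. Their median was -2.24, against -0.76 for the members. In the difference of the steps 16 of 20 were lower, against 5 of 41 members and 2.05% of all genes. After castration 0 of 20 passed by limma, with a median of -0.50, and 0 had an unadjusted p under 0.05, beside 6858 of 17593 genes. The 5 genes outside the members whose pattern over the 54 tumors was closest to the mean member level were TICRR, UHRF1, MYBL2, CENPI and HASPIN. This likeness is a description over all tumors, with the differences between groups included, and it was not computed within groups.

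Centring takes the same value from every gene of a tumor, so by construction it shifts the medians of all genes and of the members alike. Centring each tumor on its median gene took the median of all genes from 0.21 to 0.01 in the enzalutamide step, with 13.9% of genes lower and 11.2% higher, and from 0.16 to -0.03 after castration, with 14.4% lower and 10.2% higher. It gave 11% lower and 11.6% higher in CRPC against PRE-CX, 28.3% and 26.6% in ENZS against PRE-CX and 27.7% and 24.2% in ENZR against PRE-CX. The members' median went from -0.76 to -0.97 in the enzalutamide step and from -0.33 to -0.52 after castration. Of the stroma and blood markers that could be tested, 7 of 15, 3 were higher in ENZS than in CRPC without centring, CD68 (1.4), COL3A1 (1.14) and COL1A1 (1.0), where 31.4% of all genes were higher.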

How the data were processed

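RNA-seq of 54 LNCaP xenograft tumors was analysed. According to the methods of the study and the labels' processing notes, the authors checked reads with FastQC 0.11.9, trimmed them with Trim Galore 0.6.5, aligned them with STAR 2.7.2b to a joint human (GRCh38) and mouse (GRCm38) reference and quantified them with RSEM 1.3.3. The authors deposited 1 TPM value per human gene symbol and tumor, with mouse genes removed. TPM hold no read depth, so no counting interval is given and the precision rests on the spread between tumors. RSEM divides reads among near-identical copies.

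Each tumor was rescaled to a human total of 1000000, since the human share differed. Genes with at least 1 rescaled TPM in at least 8 tumors were tested on log2(rescaled TPM + 1), a scale that understates changes of low genes, with limma 3.58.1 (R 4.3.3, trend) and 5 group means. P-values were adjusted by Benjamini-Hochberg over 17593 genes. The 7 comparisons and 2 differences of steps were tested in 1 fit. The script was checked on simulated data. The 41 members and the other lists were chosen with earlier results of these data known. All members could be named, and in each other list the largest called differences. Some items of these lists are not reported here. Mouse numbers named the tumors and paired none. Alternatives were TPM as deposited, centring on the median gene, a pseudocount of 0.1, no filter, leaving out the tumors with a human share under 50%, fitting only the compared groups, and leaving out each tumor. RefSeq tables (GRCh38.p14) gave positions and promoters, with motifs counted on both strands, and a genome of the authors' build was not used here.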

Additional observations from a re-analysis of the deposited data

Results flagged for a closer look

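In groups of 8 to 10 tumors, 10 of 84 combinations of 28 members and 3 groups had a tumor far from the rest by Dixon's test. Its threshold marks about 1 in 20 when values are independent and normally distributed. Many members varied together over the tumors, so the 84 are not independent, and the share over all genes was not taken. The 10 therefore cannot be set against 1 in 20 or called particular to the members. 6 of the 10 were the lowest value in POST-CX mouse 91, whose human TPM share was 27.9%. Its rescaled TPM was 4.05 for ORC6, 5.81 for CDC6, 6.56 for MCM5, 3.44 for CDC45, 87.1 for PCNA and 85 for POLD2. In PRE-CX, mouse 58 was high for GMNN at 427 rescaled TPM and mouse 53 was high for RFC1 at 131. In CRPC, mouse 81 was high for CDC45 at 34.2 and for GINS1 at 33.1, and it had the highest mean member level of its group. ENZS and ENZR, with more than 10 tumors each, were not examined in this way.

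The enzalutamide and castration steps differed by the test of the difference itself in 5 members. The log2 values of ENZS minus CRPC, less those of POST-CX minus PRE-CX, were -2.15 for TYMS, -1.96 for TK1, -1.38 for CDT1, -1.31 for GINS1 and -1.05 for GINS2 (limma, adjusted p 0.0263, 0.00584, 0.0212, 0.0337 and 0.0447).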

How the results depend on the processing

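The enzalutamide step kept 26 to 38 members lower over the alternatives, the ENZS and ENZR counts against PRE-CX stayed within 1.5 times, and ENZR against ENZS and CRPC against POST-CX gave 0 members under each alternative. The counts that moved were those of 6 for castration, 10 for CRPC against PRE-CX and 5 for the difference of the steps. With TPM as deposited they were 0, 0 and 0, with no filter 3, 5 and 2, and with only the compared groups 13, 16 and 13. Centring gave 16 for castration, and leaving out the 2 tumors of low human share gave 2 for castration and 13 for the difference of the steps. The 5 members of that difference with a change of 2-fold or more became 0 as deposited, 2 with no filter, 9 without the tumors of low human share and 11 with only the compared groups. The fit on the compared groups alone does not share their spread with the other groups. The cause of the other moves was not tested.

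Leaving out 1 tumor at a time gave 2 to 7 members for castration, 5 to 14 for CRPC against PRE-CX, 32 to 37 for the enzalutamide step (14 to 19 by 2-fold), 37 to 38 for ENZS against PRE-CX (26 to 30), 34 to 36 for ENZR against PRE-CX (21 to 25), 3 to 10 for the difference of the steps (3 to 7) and 0 to 1 for that of the relapse steps (0 to 1).

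Of 642 log2 values over 107 named differences, 546 kept direction and side of the threshold, 55 lost it, 21 passed it and 20 changed sign, 1 of them called. After castration, TK1 was 0.10 and POLA1 0.0619 without the tumors of low human share, POLD3 was -0.24 as deposited, -0.19 after centring and -0.0002 with a pseudocount of 0.1, and POLE was -0.21 as deposited and -0.17 after centring. After centring, POLE was -0.0503 and RPA2 -0.0323 in ENZS against CRPC, and RPA2 -0.0734 (the called one) and RPA1 -0.0937 in ENZS against PRE-CX. In ENZR against PRE-CX, RPA2 was -0.11, RPA1 -0.0096 and POLE -0.16 as deposited, and -0.13, -0.0313 and -0.21 after centring. As deposited, PRIM2 was 0.0202, RPA3 0.18 and RFC4 0.11 in the difference of the steps.

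No paired analysis was possible because no mouse number is shared between groups. TPM without counts leave the precision of low genes such as MCM10 and CDC45 unknown below about 1 rescaled TPM.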
